A study of Homo sapiens with 12 samples.

Results

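The JmjC histone demethylases examined here were 10 genes taken by symbol from the table of read counts: KDM2A, KDM2B, KDM3A, KDM3B, KDM4A, KDM4B, KDM4C, KDM5B, KDM6B and KDM7A. They were 10 of the 28278 genes in that table, and 10 of 10 passed the filter on low counts, as did 15916 genes in all. The counts came from RNA-seq of WA26 human embryonic stem cells (hESCs) and compared WT cells with UBQLN1 knockout (KO) cells, made by CRISPR/Cas9. UBQLN1 is a ubiquilin, a shuttle protein that brings ubiquitinated proteins to the proteasome. The groups were WT at normal O2, KO at normal O2, KO at 5% O2 and KO with N-acetyl-L-cysteine (NAC, an antioxidant), each with 2 libraries. The study names 20% O2 as its normal condition. The study describes a pair of clones per genotype, but the labels do not say which clone gave which library. The labels name no vehicle for the NAC comparison and give neither a NAC dose nor a time of exposure, so the KO libraries at normal O2, labelled as having no treatment, served as the control of both treatments. The study describes DMSO as the control of NAC, and for RNA-seq it describes both a short exposure to low O2 and long culture over many passages with low O2 or NAC. Vehicle and length of exposure may thus differ between the groups and cannot be told apart from the treatments. Samples of treated WT cells (4 in the labels) were not analysed here, and the O2 and NAC comparisons were all within KO cells.

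JmjC demethylases remove methyl groups from histone lysines in a reaction that consumes molecular oxygen and 2-oxoglutarate and needs ferrous iron. They share these needs with the prolyl hydroxylases that mark hypoxia-inducible factor (HIF) for degradation when oxygen is plentiful. Their activity can therefore fall when oxygen is low, and transcription of some members, KDM3A and KDM4B among them, is known to be raised by HIF. In pluripotent cells these enzymes act on marks of active promoters, of transcribed gene bodies and of repressed chromatin. The present data measure mRNA and not enzyme activity or histone marks.

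The libraries held 31236968 to 41639350 counts. Levels are given as CPM, the count scaled to the TMM-adjusted size of the library, which compares 1 gene between libraries, or as RPKM, the CPM divided by transcript length, which compares genes. UBQLN1 itself stood at 221 and 197 CPM in WT, 42.3 and 43.5 in KO, 51.9 and 47.7 in KO at 5% O2, and 62.4 and 49.3 in KO with NAC, so the labels and the targeted gene went together. All 10 pluripotency markers were above 10 CPM in every library. Of 12 stromal markers, 3 (THY1, COL1A1 and COL1A2) were above 10 CPM in 7 libraries, whose summed stromal level was 520 to 635 CPM. NAC library 1 stood apart, with 8 stromal markers above 10 CPM, none at 0 and a sum of 996 CPM. DCN, a stromal proteoglycan gene, was at 47.2 CPM there and at 0 counts in the other libraries. The log2 fold changes with NAC, and some of the calls, are therefore also given without NAC library 1. The summed early lineage markers were at 4.91 to 16.3 CPM. In bulk RNA, fewer cells expressing a gene and less RNA per cell cannot be told apart.

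HIF binds DNA at the core ACGTG or GCGTG. Both were searched on both strands in the RefSeq promoter windows of the 10 genes, from 250 bases before to 50 bases after each start (GRCh38.p14, 16 windows, 10 of 10 genes matched). At least 1 core was in 13 of the 16 windows, against 48.4% of all 35116 promoter windows of that length. The 16 are not independent, since the 2 windows of KDM3A hold the same GCGTG and KDM2B gave 4 windows. Their GC content, 53% to 84%, was not matched in this comparison. ACGTG was in 4 of the 16 and in 21.4% of all windows, and GCGTG was in 12 of the 16 and in 36.5% of all windows. Of the 4 windows printed, 3 are those of the genes whose mRNA was called higher at 5% O2 (KDM3A, KDM4B and KDM7A). The other, for contrast, is that of KDM4C, whose mRNA was not called. The KDM4C window had the most matches with both strands counted, where 1 CACGTG gives 2 matches, so matches are not separate sites. KDM3A has 2 overlapping windows, of which the first is shown. They run 5′ to 3′ on the strand of the gene, and capitals mark the cores, on either strand.
KDM3A, chr2:86441121-86441420, plus strand: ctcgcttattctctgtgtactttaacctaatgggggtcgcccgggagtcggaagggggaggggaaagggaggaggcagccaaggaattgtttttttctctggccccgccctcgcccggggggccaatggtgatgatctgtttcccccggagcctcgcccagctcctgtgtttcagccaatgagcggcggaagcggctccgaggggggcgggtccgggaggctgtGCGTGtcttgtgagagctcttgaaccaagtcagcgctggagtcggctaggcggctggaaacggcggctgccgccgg
KDM4B, chr19:4968863-4969162, plus strand: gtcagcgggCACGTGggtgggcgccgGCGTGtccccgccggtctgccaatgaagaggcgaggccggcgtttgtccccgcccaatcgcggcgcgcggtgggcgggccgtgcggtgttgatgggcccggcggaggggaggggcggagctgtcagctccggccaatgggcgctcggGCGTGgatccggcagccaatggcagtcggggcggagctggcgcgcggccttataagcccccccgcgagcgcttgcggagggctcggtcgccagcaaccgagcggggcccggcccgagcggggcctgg
KDM7A, chr7:140176934-140177233, minus strand: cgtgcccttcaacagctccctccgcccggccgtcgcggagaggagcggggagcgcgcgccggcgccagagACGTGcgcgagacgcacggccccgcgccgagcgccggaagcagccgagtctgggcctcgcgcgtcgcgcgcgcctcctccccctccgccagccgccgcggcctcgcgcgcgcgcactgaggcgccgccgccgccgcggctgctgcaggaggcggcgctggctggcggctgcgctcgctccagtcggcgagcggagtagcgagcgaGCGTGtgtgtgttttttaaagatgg
KDM4C, chr9:6757723-6758022, plus strand: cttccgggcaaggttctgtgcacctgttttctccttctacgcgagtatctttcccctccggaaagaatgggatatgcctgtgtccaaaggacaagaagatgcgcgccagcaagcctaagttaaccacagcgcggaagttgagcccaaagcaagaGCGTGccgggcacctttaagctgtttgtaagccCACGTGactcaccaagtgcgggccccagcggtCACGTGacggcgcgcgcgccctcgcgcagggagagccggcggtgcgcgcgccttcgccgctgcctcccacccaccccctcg

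The KDM3A window held 1 core, a GCGTG that began 26 bases before the start. The KDM4B window held 4, of which a pair were the overlapping strands of 1 CACGTG, and the KDM7A window held 2. The KDM4C window held 5, of which 4 were the overlapping strands of 2 CACGTG. The KDM3B window held none. Cores were thus present in windows of genes called at 5% O2 and in windows of genes that were not, and a match describes the letters, not a bound site.

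The 10 genes differed widely in level. In RPKM, the order in KO at normal O2 ran from KDM2B (39.7 ± 0.389, SD, n = 2, as for all SDs here) and KDM5B (33.4 ± 1.62) through KDM3B (27.2 ± 1.38), KDM4A (25.0 ± 1.68), KDM2A (13.4 ± 0.0591) and KDM4B (13.0 ± 0.343) to KDM4C (7.99 ± 0.238), KDM3A (6.19 ± 0.607), KDM7A (3.16 ± 0.0323) and KDM6B (2.85 ± 0.205). No neighbours in that order overlapped. The order in WT had the same genes in ranks 1 and 2 and in ranks 7 to 10, and KDM4A (26.2 ± 3.44 RPKM) and KDM3B (23.5 ± 2.71 RPKM) overlapped there. At 5% O2 KDM3A went from rank 8 in KO to rank 6, at 17.4 RPKM in both libraries, where it overlapped KDM4B (18.04 ± 2.43 RPKM). KDM4B was then at rank 5 and KDM2A at rank 7 without overlap, where in KO KDM2A had been the higher of the pair. KDM5B with KDM2B, and KDM4A with KDM3B, also changed places from KO to 5% O2, with overlap at 5% O2. With NAC, KDM3A (8.36 ± 2.92 RPKM), KDM4C (7.58 ± 1.40), KDM4B (6.87 ± 0.968) and KDM2A (6.75 ± 1.13) overlapped each with the next.

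**Figure D1:**
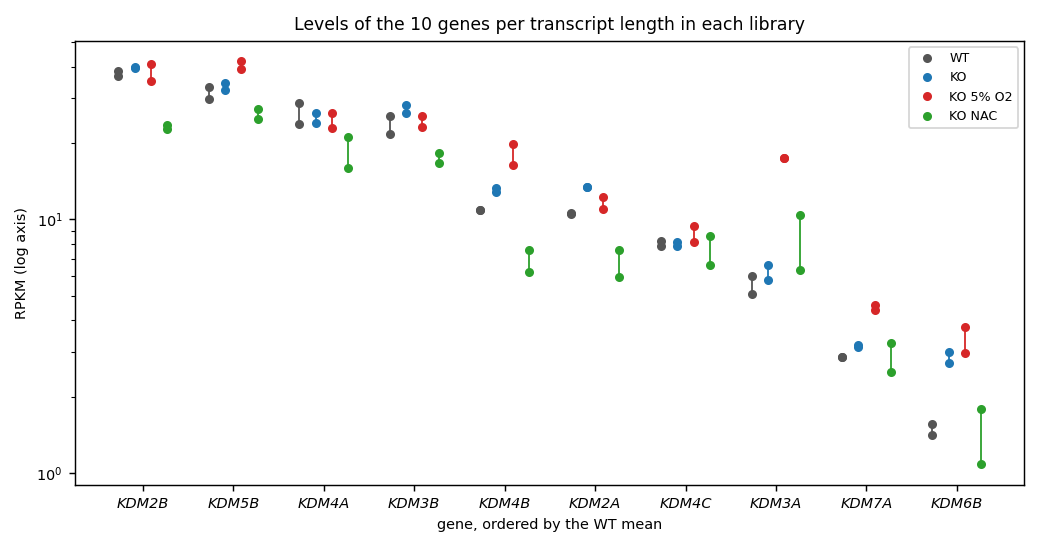
Level in RPKM (log axis) of each of the 10 genes in each of 8 libraries, ordered by the WT mean; points are libraries and lines join the 2 libraries of a group. KDM2B and KDM5B are the most abundant in each group and KDM6B the least, and KDM3A moves up at 5% O2 to 17.4 RPKM.

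KDM3A made up 3.36% to 3.78% of the summed RPKM of the 10 genes in the 4 libraries at normal O2 without NAC. It made up 9.59% and 8.69% at 5% O2, and 8.16% and 5.70% with NAC. The sum over the 10 was 166 and 150 RPKM in WT, 175 and 169 in KO, 182 and 201 in KO at 5% O2, and 128 and 110 in KO with NAC. The NAC libraries thus had the lowest sums.

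The erasers of mono- and dimethyl H3K9, KDM3A (chr2:86440647-86492716, plus strand) and KDM3B (chr5:138352685-138437028, plus strand), differed from each other across the groups (coordinates here and for the other genes are GRCh38, GENCODE v44). KDM3A stood at 28.02 and 23.6 CPM in WT, 30.9 and 26.9 in KO, 81.3 and 81.3 in KO at 5% O2, and 48.7 and 29.4 in KO with NAC. The libraries at 5% O2 were above the other 6 libraries, and the 2 NAC libraries were far apart. KDM3B stood at 171 and 145 CPM in WT, 189.7 and 177 in KO, 155 and 172 in KO at 5% O2, and 123 and 112 in KO with NAC. Its NAC libraries were below the other 6.

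The KDM4 enzymes, from KDM4A (chr1:43650149-43705518, plus strand), KDM4B (chr19:4969113-5153598, plus strand) and KDM4C (chr9:6720863-7175648, plus strand), remove methyl groups from trimethylated H3K9 and H3K36. KDM4A stood at 128 and 106 CPM in WT, 118 and 107 in KO, 102 and 118 in KO at 5% O2, and 94.7 and 71.6 in KO with NAC. KDM4B stood at 61.2 and 61.2 CPM in WT, 71.7 and 74.4 in KO, 91.5 and 111 in KO at 5% O2, and 42.3 and 34.6 in KO with NAC. The 4 groups of KDM4B did not overlap one another, in the order NAC, WT, KO and 5% O2, whereas KDM4C kept within 28.6 to 40.7 CPM over the 8 libraries. KDM4A shares 40.2% of its exonic bases (GENCODE v44) with another annotated gene on its strand and 9.12% with KDM4A-AS1 on the opposite strand, so its counts depend on how reads in shared exons were treated.

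KDM5B (chr1:202724495-202808487, minus strand), which erases H3K4 methylation, stood at 309 and 277 CPM in WT, 321 and 299.6 in KO, 363 and 391 in KO at 5% O2, and 252 and 231 in KO with NAC. KDM6B (chr17:7834217-7854796, plus strand), an eraser of H3K27 methylation that opposes Polycomb, stood at 9.53 and 10.5 CPM in WT, 18.2 and 20.1 in KO, 19.99 and 25.4 in KO at 5% O2, and 12.1 and 7.28 in KO with NAC. KDM7A (chr7:140084746-140176983, minus strand), which erases methylation of H3K9 and H3K27, stood at 26.6 and 26.4 CPM in WT, 28.9 and 29.4 in KO, 42.2 and 40.5 in KO at 5% O2, and 29.9 and 23.1 in KO with NAC. The 5% O2 libraries were the highest for KDM5B and KDM7A, and KDM6B had low levels in WT and with NAC and higher levels in the other groups.

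KDM2A (chr11:67119263-67258082, plus strand) and KDM2B (chr12:121429096-121581023, minus strand) erase dimethyl H3K36 and bind unmethylated CpG DNA, through which KDM2B brings Polycomb complex 1.1 to CpG islands. KDM2A stood at 77.9 and 77.2 CPM in WT, 98.7 and 99.3 in KO, 80.8 and 90.6 in KO at 5% O2, and 43.9 and 55.7 in KO with NAC. KDM2B stood at 204 and 195 CPM in WT, 209 and 212 in KO, 187 and 217 in KO at 5% O2, and 125 and 121 in KO with NAC. Of their exonic bases, 6.54% and 4.92% overlap genes on the opposite strand. For both genes the NAC libraries were the lowest of the 8, and the other groups of KDM2B lay close together.

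**Figure D2:**
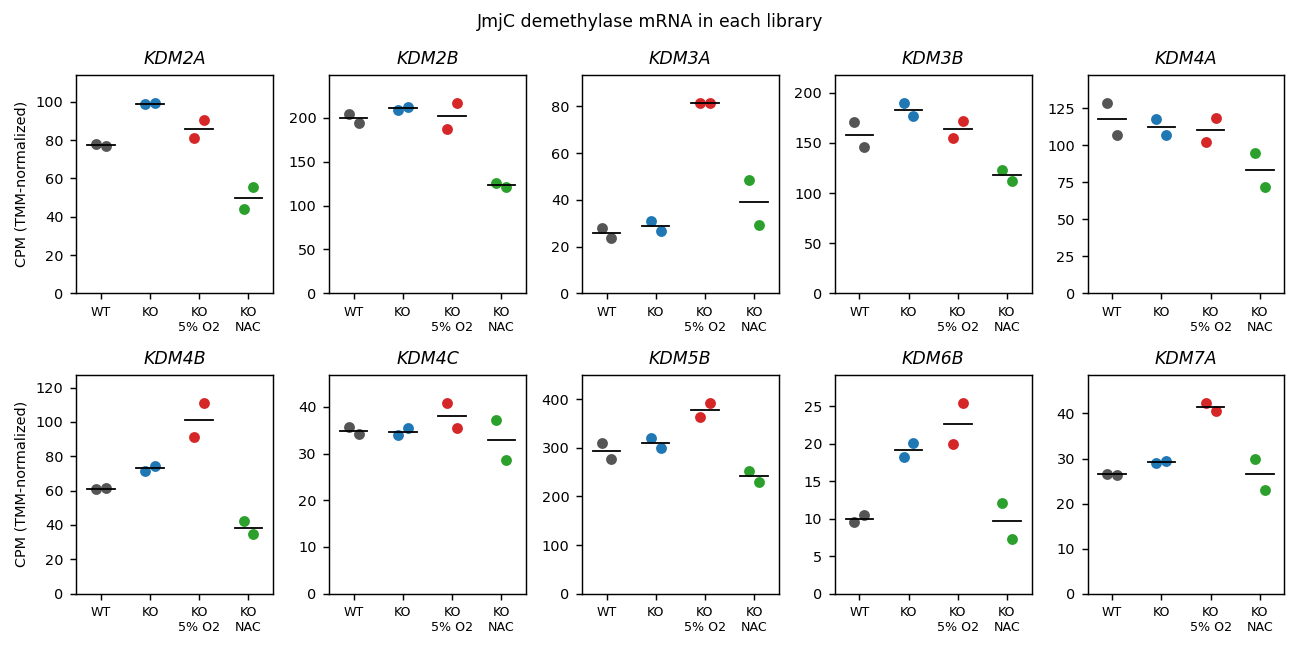
Level in CPM (linear axis from 0, TMM-normalized) of each gene in each library of WT, KO, KO at 5% O2 and KO with NAC; points are libraries and bars are means of 2. KDM3A, KDM4B, KDM5B and KDM7A have both 5% O2 libraries above all other libraries. Against the KO libraries alone, 4 genes are higher at 5% O2 without overlap, against 30.7% of all tested genes. With NAC, 7 genes have both libraries below both KO libraries, against 34% of all tested genes.

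The first comparison asked how lower oxygen changed the 10 mRNAs in KO cells. At 5% O2, 3 of the 10 rose against KO at normal O2, namely KDM3A, KDM7A and KDM4B, and none fell. Over all tested genes 3.68% were called higher and 4.13% lower, at an adjusted p under 0.05 (edgeR's quasi-likelihood test, Benjamini-Hochberg adjustment over all of them). No member was lower at an unadjusted p under 0.05 or by DESeq2 (0 in each). The median log2 fold change was 0.19 over the 10 genes and close to 0 over all tested genes (-0.00025). The libraries of the groups did not overlap for 4 genes that were higher and 2 that were lower, against 30.7% and 30.3% of all tested genes.

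KDM3A rose 2.82-fold, a log2 fold change of 1.49 (SE 0.19, 95% interval 1.08 to 1.91, adjusted p = 0.0023 in edgeR's quasi-likelihood test), and was the only 1 of the 10 past the study's own criteria of an absolute log2 fold change over 1 with an unadjusted p under 0.05. Applied here to edgeR's values, where the study used DESeq2, those criteria called 0.811% of all tested genes higher and 1.21% lower. Without 5% O2 library 1 the log2 fold change of KDM3A was again 1.49, and its call was lost. Without each library in turn, its log2 fold change ran from 1.40 to 1.60. In the alternatives with 2 libraries per group, KDM3A had an adjusted p of at most 0.0026 in edgeR's test or DESeq2. Its paralog KDM3B had a log2 fold change of -0.16 (SE 0.10, adjusted p = 0.36 in edgeR's test), with an interval from -0.39 to 0.062.

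KDM7A rose 1.42-fold (log2 fold change 0.50, SE 0.12, adjusted p = 0.034 in edgeR's quasi-likelihood test) and KDM4B rose 1.38-fold (log2 fold change 0.47, SE 0.12, adjusted p = 0.036 in the same test). Both calls were lost when any 1 of the 4 libraries was left out, with adjusted p-values in edgeR's test of 0.105 to 0.287 for KDM7A and 0.164 to 0.251 for KDM4B. Calls over all tested genes fell as well in these fits, from 586 higher and 657 lower to 29 and 12 without KO library 1, 42 and 46 without KO library 2, 31 and 5 without 5% O2 library 1, and 238 and 275 without 5% O2 library 2. KDM5B had a log2 fold change of 0.28 (SE 0.091, adjusted p = 0.079 in edgeR's test), and DESeq2 called it (adjusted p = 0.034). The log2 fold changes of KDM6B (0.24, SE 0.21), KDM4C (0.14, SE 0.13), KDM4A (-0.027, SE 0.14), KDM2B (-0.064, SE 0.090) and KDM2A (-0.21, SE 0.11) did not pass the test.

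The other lists put these values in context. Of 24 hypoxia-induced reference genes, 19 rose at 5% O2 and none fell in edgeR's test (0 lower also at an unadjusted p under 0.05 and by DESeq2), with a median log2 fold change of 1.62, and 14 to 18 rose when any 1 of the 4 libraries was left out. SLC2A1, a glucose transporter, had a log2 fold change of 2.10 (SE 0.10) and LDHA, lactate dehydrogenase A, of 2.03 (SE 0.12), beside 1.49 for KDM3A. Of 19 other JmjC genes, none rose and 1 fell in edgeR's test (2 and 4 at an unadjusted p under 0.05, 1 and 3 by DESeq2): PHF2, an H3K9 demethylase, with a log2 fold change of -0.49 (SE 0.12), a call lost without any 1 of the 4 libraries. Neither flavin-dependent demethylase, KDM1A or KDM1B, which use flavin in place of iron and 2-oxoglutarate, was called in any comparison by edgeR or DESeq2 or at an unadjusted p under 0.05.

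Among the enzymes that write lysine methylation, the calls at 5% O2 lay in the other direction. Of 27 tested histone lysine methyltransferases, 11 fell and none rose in edgeR's test (1 higher at an unadjusted p under 0.05 and 1 by DESeq2), with a median log2 fold change of -0.31. The lowest adjusted p-values were those of KMT2A (log2 fold change -0.84, SE 0.13), SETD1B (-0.89, SE 0.14), which both write H3K4 methylation, and DOT1L (-0.73, SE 0.12), which writes H3K79 methylation. After the trend on length and GC content was removed, as described further on, 1 of the 27 fell. The count was 0 without KO library 1 or 5% O2 library 1, 1 without KO library 2 and 7 without 5% O2 library 2. Of 16 Polycomb genes, SKP1 rose (0.46, SE 0.079) and BCOR, a scaffold of complex 1.1, fell (-0.62, SE 0.11), and both of these calls were lost without KO library 1, KO library 2 or 5% O2 library 1.

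The second comparison asked how NAC changed the 10 mRNAs in KO cells against the same KO libraries. With NAC, 7 of the 10 fell and none rose in edgeR's quasi-likelihood test. The background was large in this comparison, with 20.8% of all tested genes called lower and 23.8% higher. The median log2 fold change was -0.54 over the 10 genes and 0.023 over all tested genes. At an unadjusted p under 0.05 1 gene was higher, KDM3A, and by DESeq2 0 were. The groups did not overlap for 7 genes that were lower and 0 that were higher, against 34% and 36.2% of all tested genes. In edgeR's values no member was past the study's own criteria, by which 5.39% of tested genes were lower and 3.63% higher. By DESeq2, the tool the study used, KDM2A (log2 fold change -1.02, unadjusted p = 1.3e-16) and KDM6B (-1.01, unadjusted p = 2.6e-06) were past them, both lower.

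KDM2A fell 1.99-fold (log2 fold change -0.99, SE 0.12, adjusted p = 5.0e-05 in edgeR's quasi-likelihood test), and KDM2B fell 1.71-fold (log2 fold change -0.78, SE 0.091, adjusted p = 5.2e-05 in the same test). KDM6B fell by 0.98 on the log2 scale (SE 0.21, adjusted p = 0.0026 in edgeR's test), to 9.67 ± 3.38 CPM, beside 10.02 ± 0.686 CPM in WT. KDM4B (log2 fold change -0.92, SE 0.12, adjusted p = 9.6e-05 in edgeR's test) and KDM3B (-0.64, SE 0.10, adjusted p = 4.1e-04 in edgeR's test) fell too. KDM4A (-0.43, SE 0.14) and KDM5B (-0.36, SE 0.091) fell with adjusted p-values in edgeR's test of 0.024 and 0.0067. Leaving out KO library 1 took both of the last calls away (0.152 and 0.075), and that of KDM4A was also lost without KO library 2 (0.055) or NAC library 2 (0.134, with a log2 fold change of -0.25).

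KDM4C (log2 fold change -0.074, SE 0.13) and KDM7A (-0.14, SE 0.13) were not called with NAC. KDM3A, which had a log2 fold change of 0.44 (SE 0.19, 95% interval 0.027 to 0.85, adjusted p = 0.079 in edgeR's test), rested on NAC library 1. Without that library its log2 fold change was 0.022 (adjusted p = 0.92 in edgeR's test) and without NAC library 2 it was 0.75 (adjusted p = 2.2e-04). NAC library 1 was also the library with stromal markers, and the part of these in the KDM3A level was not tested. Without NAC library 1, the log2 fold change of KDM7A was -0.34. In that fit the log2 fold changes of the 7 genes called lower with all libraries were -0.83 for KDM2A, -0.81 for KDM2B, -0.71 for KDM3B, -0.65 for KDM4A, -1.08 for KDM4B, -0.43 for KDM5B and -1.40 for KDM6B.

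Of 19 other JmjC genes, 9 fell with NAC and 2 rose, and the counts were again 9 and 2 without NAC library 1. JARID2, a Polycomb partner with no demethylase activity, had a log2 fold change of -0.77 (SE 0.083), RIOX1, a nucleolar hydroxylase, of -0.68 (SE 0.11) and PHF8, an eraser of H3K9 and H4K20 methylation, of -0.63 (SE 0.10). TYW5, a tRNA hydroxylase (log2 fold change 0.70, SE 0.17), and HSPBAP1 (0.51, SE 0.18) rose, of which HSPBAP1 was no longer called without NAC library 1 (0.44, adjusted p = 0.090 in edgeR's test). Of 27 methyltransferases, 15 fell and 3 rose (16 and 4 without NAC library 1). KMT2D, an H3K4 methyltransferase, had a log2 fold change of -1.68 (SE 0.15), SETD1B of -1.58 (SE 0.14) and EHMT1, an H3K9 methyltransferase, of -1.11 (SE 0.094). SMYD3 (0.76, SE 0.14), SMYD2 (0.61, SE 0.14) and SUV39H2 (0.40, SE 0.12) had positive log2 fold changes that passed the test.

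Of 16 Polycomb genes, 8 rose and 4 fell with NAC, and the counts were again 8 and 4 without NAC library 1, but 7 and 2 without KO library 1 and 5 and 3 without KO library 2. SKP1 (log2 fold change 0.85, SE 0.079), MTF2 (0.60, SE 0.092) and RBBP4 (0.43, SE 0.077) rose. USP7 (-0.78, SE 0.10), BCOR (-0.71, SE 0.11) and AEBP2 (-0.57, SE 0.14) fell. Of the partners of KDM2B in Polycomb complex 1.1 named here, SKP1 was thus higher and USP7 and BCOR lower. After the trend on length and GC content was removed, SKP1 (0.96) and USP7 (-0.49) kept their calls. BCOR (-0.14, adjusted p = 0.36 in edgeR's test) did not. Of the 24 hypoxia-induced genes, 14 rose and 0 fell (15 and 1 at an unadjusted p under 0.05, 13 and 1 by DESeq2), and without NAC library 1 the counts were 11 and 3. FAM162A (1.01, SE 0.10), SLC2A1 (0.85, SE 0.10) and P4HA1, a collagen prolyl hydroxylase (1.34, SE 0.17), had the lowest adjusted p-values of those that rose.

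**Figure D3:**
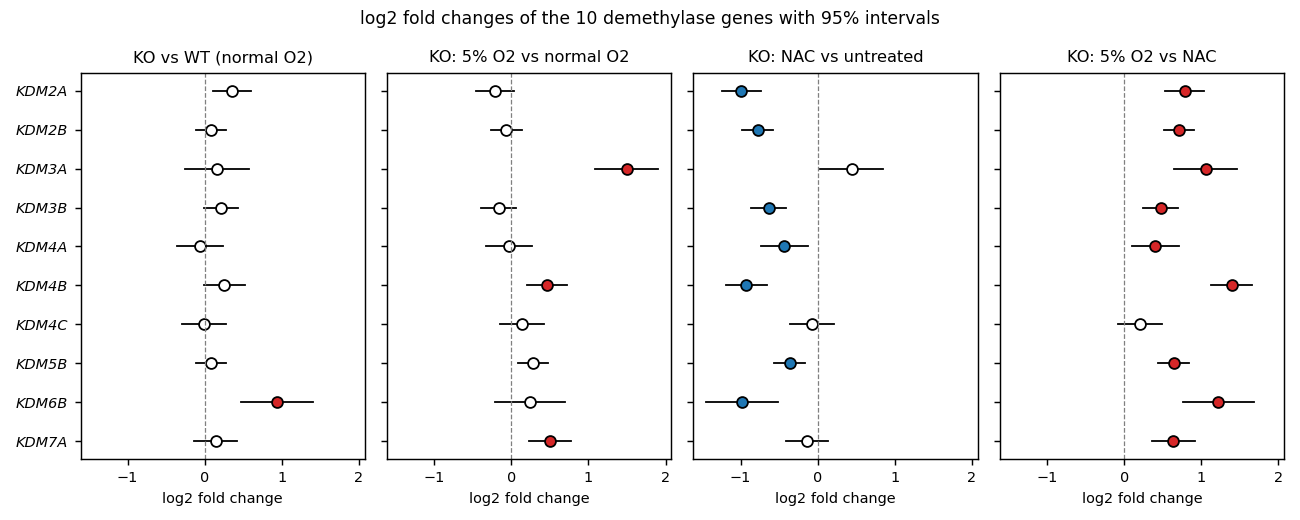
Log2 fold change of each gene with its 95% interval in 4 comparisons; red points are called higher, blue points lower, at an adjusted p under 0.05 in edgeR's quasi-likelihood test, and open points are not called. KDM3A is highest at 5% O2 (1.49). With NAC 7 genes are called lower, against 20.8% of all tested genes, and 9 genes are called higher at 5% O2 than with NAC, against 13.6%.

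The treatments were also compared directly, with the limit that their vehicle and length of exposure may differ. Between KO at 5% O2 and KO with NAC, 9 of the 10 genes were higher at 5% O2 and none was lower, while 13.6% of all tested genes were called higher and 15.5% lower. No member was lower at an unadjusted p under 0.05 or by DESeq2 (0 in each). Without each library in turn, the log2 fold changes of the 10 genes all stayed positive, the lowest being 0.035 for KDM4C. KDM4B had the largest difference of the 10, 2.62-fold (log2 fold change 1.39, SE 0.12, adjusted p = 9.5e-05 in edgeR's quasi-likelihood test), followed by KDM6B (1.22, SE 0.21) and KDM3A (1.06, SE 0.19). Without NAC library 1 these log2 fold changes were 1.55, 1.64 and 1.47, and that of KDM4A went from 0.41 to 0.62. These 3 were also past the study's own criteria, which called 2.46% of tested genes higher and 1.95% lower. The groups did not overlap for 9 genes, against 29.2% of all tested genes higher at 5% O2. The differences of KDM2A (0.78, SE 0.12), KDM2B (0.71, SE 0.091), KDM5B (0.64, SE 0.091), KDM7A (0.64, SE 0.13), KDM3B (0.47, SE 0.10) and KDM4A (0.41, SE 0.14, adjusted p = 0.047 in edgeR's test) passed the test too. KDM4C had a log2 fold change of 0.21 (SE 0.13, 95% interval -0.077 to 0.50), which was 0.42 without NAC library 1 (adjusted p = 0.028 in edgeR's test). The call of KDM4A was lost without 5% O2 library 1, 5% O2 library 2 or NAC library 2 (adjusted p = 0.070, 0.31 and 0.21 in edgeR's test), and that of KDM3B without 5% O2 library 2 (adjusted p = 0.086).

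In this direct comparison the other lists held calls as follows. Of 19 other JmjC genes 6 were higher at 5% O2 and 2 lower, of 27 methyltransferases 8 were higher and 1 lower, and of 16 Polycomb genes 3 were higher and 6 lower. Without NAC library 1 the Polycomb counts were 2 and 3, without 5% O2 library 1 they were 2 and 2, and without 5% O2 library 2 the counts of the 3 lists were 1 and 0, 4 and 0, and 2 and 0. JARID2 (log2 fold change 0.48, SE 0.083), EHMT1 (0.64, SE 0.094) and USP7 (0.59, SE 0.10) had the lowest adjusted p-values among the higher genes of these lists. Of the 24 hypoxia-induced genes 15 were higher and none lower (0 also at an unadjusted p under 0.05 and by DESeq2), and without NAC library 1 22 were higher. PFKFB3, which controls glycolysis, had a log2 fold change of 2.04 (SE 0.12).

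The last comparison asked what the loss of UBQLN1 did at normal O2. In KO against WT, 1 of the 10 genes rose, KDM6B, and none fell (0 also at an unadjusted p under 0.05 and by DESeq2), while 1.34% of all tested genes were called higher and 0.622% lower. KDM6B rose 1.91-fold (log2 fold change 0.94, SE 0.21, 95% interval 0.47 to 1.40, adjusted p = 0.047 in edgeR's quasi-likelihood test). Its call was lost when any 1 of the 4 libraries was left out (adjusted p = 0.232 to 0.277 in edgeR's test), in fits that called 29 to 33 of all tested genes higher and 34 to 49 lower, beside 213 and 99 with all libraries. None of the 10 was past the study's own criteria, which called 1.11% of all tested genes higher and 1.46% lower. KDM2A had a log2 fold change of 0.35 (SE 0.11, adjusted p = 0.14 in edgeR's test) and KDM4B of 0.25 (SE 0.12, adjusted p = 0.29 in the same test). The KO libraries were above the WT libraries without overlap for 6 of the 10 genes, against 27.7% of all tested genes, and below them for 0.

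The log2 fold changes of the remaining genes in KO against WT were 0.21 for KDM3B (SE 0.10), 0.16 for KDM3A (SE 0.19), 0.14 for KDM7A (SE 0.13), 0.082 for KDM2B (SE 0.090) and KDM5B (SE 0.091), -0.010 for KDM4C (SE 0.13) and -0.064 for KDM4A (SE 0.14). None passed the test. Of 27 methyltransferases 4 rose and 0 fell (0 also at an unadjusted p under 0.05 and by DESeq2), with SETD1B (0.90, SE 0.14), DOT1L (0.68, SE 0.12) and KMT2A (0.69, SE 0.13) leading. Without KO library 2 1 of them was called, and without KO library 1, WT library 1 or WT library 2 0 were. In edgeR's test 0 of 19 other JmjC genes, 0 of 16 Polycomb genes and 0 of 24 hypoxia-induced genes were called in either direction. At an unadjusted p under 0.05, 3, 2 and 1 of them were higher and 0, 0 and 1 lower, and DESeq2 called 1 Polycomb gene higher and 1 hypoxia-induced gene lower.

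Fold changes in these libraries ran along with the base composition of the transcript. The 10 transcripts spanned much of the range of the tested genes, from 38.3% GC in KDM7A to 62.2% in KDM6B, where the 10th and 90th percentiles of all tested genes were 38.5% and 62.3%. The test was therefore repeated after each library's smooth trend along length and GC content had been taken out. At 5% O2 the calls were then KDM3A (log2 fold change 1.504, adjusted p = 0.0026 in edgeR's test), KDM4B (0.81, adjusted p = 0.0049), KDM7A (0.56, adjusted p = 0.045) and KDM5B (0.46, adjusted p = 0.018). In that setting 1.72% of all tested genes were called higher and 0.358% lower, so the share of higher genes among all calls went from 47.1% to 82.7%.

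The values with NAC moved more. KDM2A (log2 fold change -0.40, adjusted p = 0.020 in edgeR's test) and KDM2B (-0.29, adjusted p = 0.018) were still called lower once the trend was removed, where 10.5% of all tested genes were lower. KDM3B (-0.20), KDM4B (-0.19), KDM4A (-0.17), KDM6B (-0.13) and KDM5B (-0.080) were no longer called, with adjusted p-values in edgeR's test of 0.13 to 0.71. With NAC library 1 also left out, 5 of the 10 were called lower, against 11.1% of all tested genes, namely KDM6B (-0.59), KDM7A (-0.40), KDM4A (-0.38), KDM4B (-0.38) and KDM2B (-0.31). KDM2A was then at -0.24, with an adjusted p of 0.053 in edgeR's test. Calls on the other lists were also fewer with NAC, with 1 higher and 3 lower of 19 other JmjC genes, 1 and 8 of 27 methyltransferases, and 2 and 4 of 16 Polycomb genes. With all libraries, the named genes no longer called were TYW5 (0.33), HSPBAP1 (0.14), PHF8 (-0.11), SMYD2 (0.30), SUV39H2 (-0.17), MTF2 (0.10) and BCOR (-0.14). Their adjusted p-values in edgeR's test were 0.12 to 0.59, and SUV39H2 turned sign. The other genes named from these lists with NAC kept their calls. Between 5% O2 and NAC, 7 genes were still higher, with KDM4B at a log2 fold change of 1.00 (adjusted p = 6.6e-04 in edgeR's test), against 7.77% of all tested genes higher and 7.83% lower. With NAC library 1 also left out, 10 were higher, against 9.15% of all tested genes. KDM6B in KO against WT had a log2 fold change of 0.75 (adjusted p = 0.12 in edgeR's test), and 0 of the 10 genes were called there, against 0.578% of all tested genes higher. Whether the trend arose in library preparation or in the cells was not tested.

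**Figure D4:**
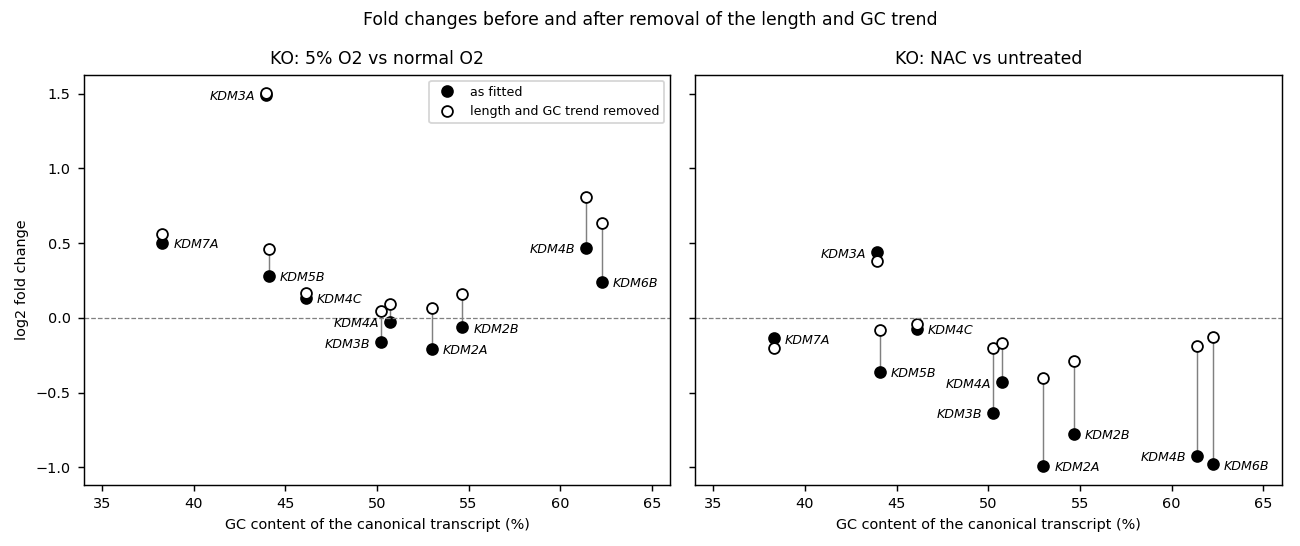
Log2 fold change (vertical axis) of each gene against the GC content of its transcript in percent, at 5% O2 (left) and with NAC (right) against KO at normal O2; filled points are as fitted and open points are after removal of the length and GC trend. KDM3A is at 1.49 and 1.504 at 5% O2, and the GC-rich KDM4B and KDM6B move from -0.92 and -0.98 to -0.19 and -0.13 with NAC.

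The genes most like KDM3A over the 8 libraries, among 12270 genes with a mean of at least 1 on the log2 CPM scale, were MPI (Pearson r = 0.988), LDHA (0.981), EGLN1 (0.974), STC1 (0.973) and BNIP3 (0.973). LDHA, EGLN1, an oxygen-sensing prolyl hydroxylase, and BNIP3, a mitophagy receptor, were on the hypoxia list. EGLN1 had mean levels of 29.0 CPM in WT, 29.8 in KO, 94.1 at 5% O2 and 38.6 with NAC, close to the means of KDM3A, 25.8, 28.9, 81.3 and 39.0 CPM. The genes most like KDM2A were ZNF618 (0.995), EML3 (0.994), SLC6A8 (0.993), FEM1A (0.993) and RTL10 (0.992). These coefficients, with NAC library 1 left out, were 0.9749 to 0.990 for KDM3A and 0.981 to 0.990 for KDM2A. ZNF618 had mean levels of 50.9 CPM in WT, 66.9 in KO, 55.9 at 5% O2 and 30.7 with NAC. These correlations describe 8 points in 4 groups that share libraries, depth and base composition.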

How the data were processed

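RNA-seq libraries of WA26 hESCs were examined in 4 groups of 2. The authors aligned trimmed reads to hg38 with hisat2 and deposited raw counts per gene from featureCounts at default settings. The annotation is not given in the sources used here. By default this counting ignores strand and drops reads that fall in more than 1 gene, so overlapping and antisense genes can lose or gain reads.

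In edgeR 4.0.16 (R 4.3.3), low counts were removed by filterByExpr with a minimum count of 10, libraries were scaled by TMM, and 1 quasi-likelihood model with a term per group and no block was fitted. Benjamini-Hochberg adjustment ran over 15916 genes, and calls were made at an adjusted p under 0.05. There were 4 residual degrees of freedom, and the tests of the 10 genes had 11.6, since edgeR shares the spread across genes. The biological coefficient of variation was 13.7%. The study calls the libraries of its O2 comparison biological replicates. No label ties the 2 libraries of a group to separate cultures or clones. The p-values thus measure the spread between these libraries, pooled over all groups, also those not compared. The replicates differed by more than sampling noise (chi-square per degree of freedom 9.52 to 30.7). RPKM used canonical GENCODE v44 transcript lengths. The length and GC trend was removed by mgcv 1.9.3 offsets, with both properties known for 97.1% of tested genes.

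Alternatives were DESeq2 1.42.0, other normalizations and filters, a replicate block, a fit of only the groups compared, the study's criteria on edgeR's values, the trend and leaving out each library. For the 5 lists, leaving out each library was chosen after seeing the data, as was leaving out NAC library 1 from the correlations and together with the trend. The 10 genes and the 5 lists (other JmjC genes, flavin-dependent demethylases, histone lysine methyltransferases, Polycomb complexes 1.1 and 2, hypoxia-induced genes) were chosen with earlier results of these data known. Named genes are the 10, UBQLN1, from each list up to 3 per direction with the lowest adjusted p, and the 5 genes most like the 10's largest changers at 5% O2 and with NAC. PRDM9 and RING1 did not pass the filter. The fits were tested on data simulated with 1 spread for all genes. At 5% O2 against KO, 75 of 98 genes changed by a log2 fold of 1 were recovered in the right direction. For a log2 fold of 2 it was 97 of 99, and 6 of 15391 unchanged genes were called. Smaller changes, and a library that stood apart like NAC library 1, were not simulated.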

Additional observations from a re-analysis of the deposited data

How the results depend on the processing

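With 2 libraries per group, calls near the threshold moved. In KO against WT, KDM6B was the 1 gene called higher. There 0 were called with upper quartile normalization, the replicate block, the trend removed or the study's criteria, and 2 with no low-count filter or only the groups compared. At 5% O2 3 were called higher, and 4 by DESeq2, with no low-count filter, the trend removed or only the groups compared. The count was 1 by the study's criteria and fell without each library in turn. With NAC 0 were called higher, 1 with no filter or the replicate block (KDM3A) and 0 to 1 without each library. With NAC 7 were called lower, 2 with the trend removed, 5 with the trend removed and NAC library 1 left out, 0 by the study's criteria and 5 to 8 without each library. Between 5% O2 and NAC 9 were higher, 3 by the study's criteria and 7 to 10 without each library. Without each library, KO against WT gave 0. All replicate numbers were checked for pairing, and deviations of same-numbered libraries correlated at -0.02 to 0.08 over genes. The main fit used no pairing, and whether same-numbered libraries share a clone or batch was not tested. The block changed the calls of KDM6B in KO against WT (adjusted p = 0.060) and KDM3A with NAC (adjusted p = 0.044) in edgeR's test.

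Small uncalled log2 fold changes turned sign. With the trend removed they became -0.037 (KDM2B) and -0.022 (KDM5B) in KO against WT, and 0.069 (KDM2A), 0.16 (KDM2B), 0.043 (KDM3B) and 0.094 (KDM4A) at 5% O2. Without each library in turn, KDM4A ran from -0.19 to 0.078 and KDM4C from -0.041 to 0.022 in KO against WT, and KDM2B from -0.17 to 0.040 and KDM4A from -0.13 to 0.073 at 5% O2. With NAC, KDM4C ran from -0.28 to 0.10 and KDM7A from -0.34 to 0.036, and KDM3A was at -0.015 with the trend removed and NAC library 1 left out. The cause was not tested. Of the values of single genes under alternatives, 436 kept their direction and side of the threshold, 35 lost a call, 13 gained one and 16 turned sign.

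Counts over all genes (higher and lower) moved from 213 and 99 in KO against WT to 545 and 315 by DESeq2, 782 and 470 with no filter, 738 and 386 with only the groups compared, and 92 and 99 with the trend removed. At 5% O2 they moved from 586 and 657 to 1081 and 1063, 1039 and 1181, 1466 and 1543, and 273 and 57 in the same order. With the trend removed they moved from 3785 and 3315 to 2402 and 1670 with NAC, and from 2166 and 2469 to 1236 and 1246 between 5% O2 and NAC. Without each library in turn they were 29 to 33 and 34 to 49 in KO against WT, 29 to 238 and 5 to 275 at 5% O2, 2634 to 4070 and 2397 to 3521 with NAC, and 717 to 2568 and 637 to 2900 between 5% O2 and NAC.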
